A study of Mus musculus with 10 samples.

Results

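The genes described here are 8 receptors of the tumour necrosis factor (TNF) receptor family that lymphocytes carry: Tnfrsf9 (4-1BB, CD137), Tnfrsf18 (GITR), Tnfrsf4 (OX40), Cd27, Tnfrsf1a (TNF receptor 1), Tnfrsf1b (TNF receptor 2), Ltbr (lymphotoxin beta receptor) and Fas. Their probe sets were found by gene symbol. All 8 were on the array, with 11 of its 45101 probe sets and 8 of the 18193 genes that had a probe set of their own. Expression was measured on 1-colour Affymetrix MOE430_2 arrays of total RNA. The groups compared were 3. Resting natural killer (NK) cells came from the spleen of wild type C57Bl/6 mice, were sorted as NK1.1+CD3- cells and were lysed at once (3 arrays). IL-15 NK cells were sorted in the same way and kept for 24 h with 100 ng/mL of recombinant mouse IL-15, a cytokine that keeps NK cells alive and activates them (3 arrays). Bulk resting mouse splenocytes, the unsorted mix of spleen cells, were lysed directly (4 arrays). The series design gives the NK arrays of each condition as 3 biological replicates and the splenocyte arrays as 2 biological samples on 2 chips each, and it does not say which chips belong together. The sources used here give neither the age and sex of the mice, nor the number of mice per sample, nor the strain of the splenocyte donors. NK cells cultured without IL-15 were not analysed here, so IL-15 and 24 h of culture cannot be told apart. NK RNA was amplified in 2 cycles and splenocyte RNA in 1 cycle, so cell type and amplification cannot be told apart either.

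TNF receptors are membrane proteins that are drawn together by ligands, most of which sit on the surface of another cell. 4-1BB, GITR, OX40, CD27 and TNF receptor 2 have no death domain. They bind TRAF adaptors and signal to NF-kappaB, and on T cells and NK cells they act as costimulatory receptors that add to survival, division and cytokine output. Lymphotoxin beta receptor also signals through TRAFs and is best known from stromal and myeloid cells, whereas TNF receptor 1 and Fas carry a death domain and can start cell death. On NK cells, CD27 marks less mature stages, and 4-1BB is known to appear after activation.

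The array values are linear signals scaled to a common mean, and a signal below 179.85 units, termed the floor, was treated as that value. Between 51.1% and 62.4% of signals lay above the floor. All 11 NK cell markers measured were above it on every NK array and also on every splenocyte chip. Their summed signal was 526339 to 651997 units at rest, 452066 to 520810 after IL-15 and 52646 to 71561 in splenocytes. Of the CD3 genes, Cd3e ran from 33.7 to 189 units on NK arrays, with 1 array above the floor, Cd3d from 24.6 to 943 and Cd3g from 223 to 1333 units, each below its lowest splenocyte signal of 6278, 26641 and 7426 units. The summed signal of 12 T-cell markers was 22908 to 26477 units in NK cells at rest and 10145 to 11533 after IL-15. In splenocytes it was 90546 to 111463 units. At rest most of it was Cd28 and Lef1. Resting Cd28 (7379 to 15329 units) and Cd8a (517 to 4226) overlapped their splenocyte ranges of 8068 to 9873 and 912 to 1340 units. The other 10 lay below their splenocyte signals on every NK array. B-cell markers were not absent from resting NK arrays: their summed signal ran from 3516 to 33200 units, the highest on arrays 1 and 2, against 1408 to 2187 after IL-15 and 239542 to 290601 in splenocytes. The summed signal of macrophage and monocyte markers ran from 8146 to 28431, from 1720 to 2027 and from 169177 to 195810 units in the same order. The ratio of the 3-prime to the 5-prime signal of the Gapdh control also moved with the groups (5.88 to 9.54 at rest, 2.90 to 3.81 after IL-15 and 1.004 to 1.39 in splenocytes). That of Actb was 2.27 to 6.51, 1.28 to 1.49 and 1.34 to 1.59 in the same order, so it set resting NK cells apart from the other groups, which overlapped. The summed signal of 7 genes listed as NKT and ILC1 markers was 31029 to 37344 units at rest and 9071 to 12417 after IL-15. In splenocytes it was 46832 to 51928 units. Most of this sum at rest was Il7r and Cd1d1, and the genes did not move together. Il7r, Cd1d1, Zbtb16 and Cd200r1 were lower on every IL-15 array than on any resting array. Itga1, Tnfsf10 and Cxcr6 were higher on every IL-15 array than on any resting array. The part of these ratios, and of B-cell, T-cell, macrophage, NKT and ILC1 markers, in the differences below was not tested. In bulk samples fewer cells of a type and less RNA per cell cannot be told apart.

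The 8 genes lie on 3 mouse chromosomes (RefSeq, GRCm38.p6). Tnfrsf4 and Tnfrsf18 are next to each other on chromosome 4, which also holds Tnfrsf9 and Tnfrsf1b. Cd27, Ltbr and Tnfrsf1a form a row on chromosome 6 with 1 other protein-coding gene between neighbours, Tuba3a and Scnn1a, and Fas lies on chromosome 19. RefSeq starts were matched for all 8, with 2 starts for Tnfrsf9. The 250 bases before 5 of these starts are printed here, 5-prime to 3-prime on the strand of the gene, which is the plus strand for each. The starts are both of Tnfrsf9, the receptor that passed as higher after IL-15, and those of Tnfrsf18, Tnfrsf4 and Fas. Tnfrsf18 and Tnfrsf4 are adjacent and differed from splenocytes in opposite directions, and Fas was near the floor in NK cells. Capitals mark motif matches.
Tnfrsf9, start 1, chr4:150919905-150920154: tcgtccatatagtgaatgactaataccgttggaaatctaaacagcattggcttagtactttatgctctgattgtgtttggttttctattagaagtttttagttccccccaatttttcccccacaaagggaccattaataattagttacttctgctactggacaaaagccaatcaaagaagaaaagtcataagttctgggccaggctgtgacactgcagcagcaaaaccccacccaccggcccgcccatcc
Tnfrsf9, start 2, chr4:150927749-150927998: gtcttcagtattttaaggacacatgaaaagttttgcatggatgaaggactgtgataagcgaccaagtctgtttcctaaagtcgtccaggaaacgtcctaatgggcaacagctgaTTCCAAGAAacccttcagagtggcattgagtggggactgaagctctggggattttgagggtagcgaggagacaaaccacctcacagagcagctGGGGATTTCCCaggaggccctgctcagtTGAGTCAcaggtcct
Tnfrsf18, chr4:156026072-156026321: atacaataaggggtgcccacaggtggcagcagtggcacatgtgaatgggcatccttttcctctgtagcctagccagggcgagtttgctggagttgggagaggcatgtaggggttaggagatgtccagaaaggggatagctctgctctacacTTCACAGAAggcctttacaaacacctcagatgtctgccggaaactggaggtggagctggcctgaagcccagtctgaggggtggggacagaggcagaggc
Tnfrsf4, chr4:156013445-156013694: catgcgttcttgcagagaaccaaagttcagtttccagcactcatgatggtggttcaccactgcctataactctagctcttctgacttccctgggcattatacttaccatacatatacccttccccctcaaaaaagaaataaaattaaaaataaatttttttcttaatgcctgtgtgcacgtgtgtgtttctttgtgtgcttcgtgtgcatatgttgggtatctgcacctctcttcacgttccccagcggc
Fas, chr19:34290409-34290658: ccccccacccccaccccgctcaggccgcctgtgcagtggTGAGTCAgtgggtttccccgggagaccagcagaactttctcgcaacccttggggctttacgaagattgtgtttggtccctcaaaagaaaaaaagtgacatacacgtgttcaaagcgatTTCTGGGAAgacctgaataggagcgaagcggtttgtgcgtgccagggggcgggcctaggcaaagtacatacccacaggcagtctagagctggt

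The motifs searched on both strands were the STAT motif TTCNNNGAA (STAT5 is a known transducer of IL-15), the AP-1 motif TGANTCA and the NF-kappaB consensus. The window searched ran from 250 bases before to 50 after a start, and every match in the 8 genes lay in the part before it. A STAT motif stood before 5 of the 8 genes (Tnfrsf9 start 2, Tnfrsf18, Tnfrsf1a, Tnfrsf1b and Fas), against 9.55% of 27025 mouse genes with such a window. In Tnfrsf9 it lay at -136 to -128 from start 2 (TTCCAAGAA), and in Tnfrsf18 at -99 to -91 (TTCACAGAA). The NF-kappaB consensus was matched before Tnfrsf9 alone, by a pair of matches that overlap each other (-43 to -34 and -42 to -33 from start 2), against 9.55% of all genes. AP-1 matches stood before Tnfrsf9 start 2 (-15 to -9) and Fas (-211 to -205), against 8.97% of all genes. Start 2 of Tnfrsf9 thus held all 3 motifs, and start 1 held none of them. A match describes letters and does not show binding.

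The first comparison, of NK cells after IL-15 with NK cells at rest, asks which receptors differed after 24 h of culture with IL-15. Tnfrsf9 was the 1 receptor whose change passed: it rose 4.69-fold, where a fold is the ratio of geometric means, taken from the difference of mean log2 signals. Of 7 receptors tested, 1 passed as higher and 0 as lower in limma at an adjusted p under 0.05. Over all 11433 genes tested 26.3% passed, 14.2% as higher and 12.1% as lower, so the share among the receptors was not above that of all genes. At an unadjusted p under 0.05, 3 were higher (Tnfrsf9, Tnfrsf18 and Tnfrsf1b) and 1 was lower (Ltbr). The share of all genes at this unadjusted threshold is not given here, and the shares above are not comparable with it. The median log2 difference of the 7 was -0.12, against -0.09 over all genes. Fas was above the floor on too few NK arrays to be tested. Receptors that did not pass are not shown to be unchanged, and 4 passed with the replicate number as a block in the fit.

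**Figure D1:**
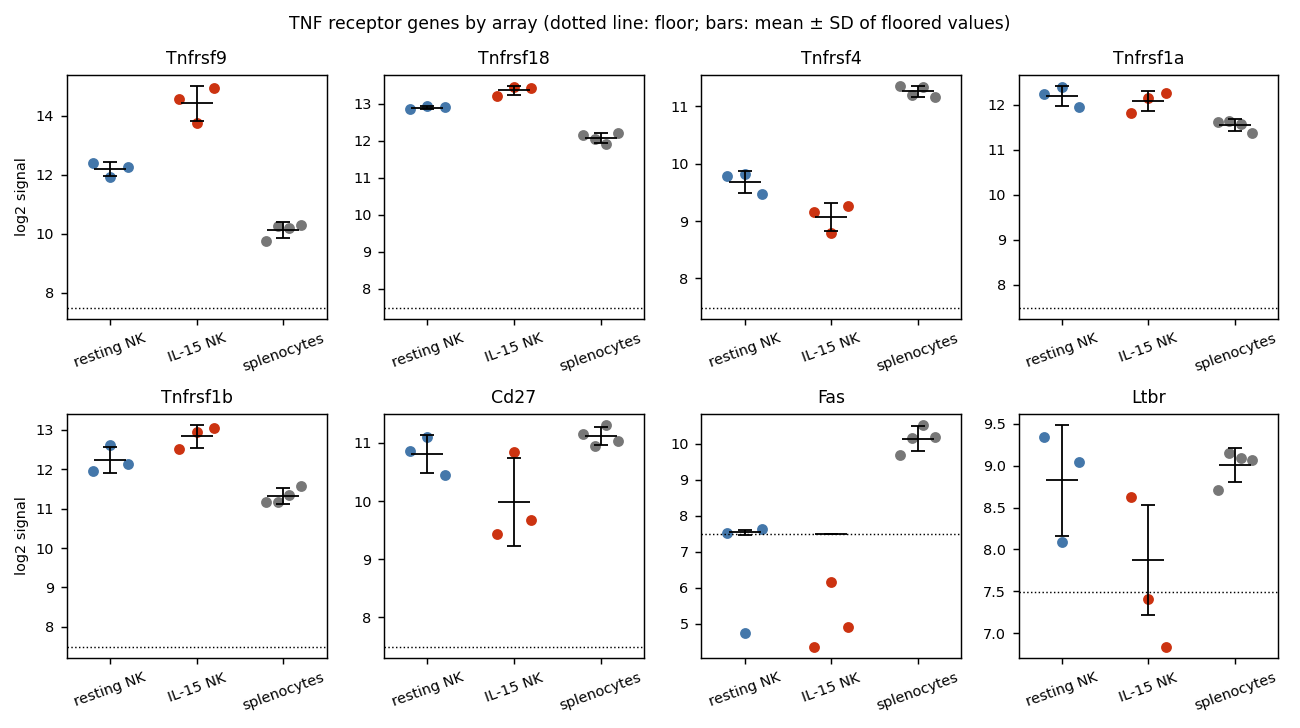
Log2 signal of each of the 8 receptor genes (y axis, own range in each panel) on the arrays of resting NK cells (blue, n = 3), IL-15 NK cells (red, n = 3) and splenocytes (grey, 4 chips of 2 samples). Points are arrays in the order of their numbers, black bars are the mean ± SD of values with the floor applied, and the dotted line is the floor of 179.85 units. The IL-15 NK arrays of Tnfrsf9 lie above all resting NK arrays and these above all splenocyte chips, and Tnfrsf4 has the splenocyte chips on top.

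Tnfrsf9 encodes 4-1BB, whose ligand is 4-1BBL. Its brightest probe set, 1460469_at, gave 5363, 3916 and 4929 units on resting NK arrays 1, 2 and 3. On IL-15 NK arrays 1, 2 and 3 it gave 24549, 13928 and 31144 units, and on splenocyte chips 1 to 4 it gave 855, 1239, 1175 and 1258 units. The groups did not overlap in any pair, and the lowest IL-15 array was number 2. The mean log2 signal was 12.20 ± 0.23 (SD, n = 3) in resting and 14.43 ± 0.60 (SD, n = 3) in IL-15 NK cells, a log2 difference of 2.23 ± 0.28 (SE, limma adjusted p = 0.00038). This call held in all 16 alternatives, with log2 differences between 1.78 and 2.56 and adjusted p-values of at most 0.029 in limma. Without resting arrays 1 and 2 together, those with the highest B-cell marker sums (a setting chosen after seeing the data), it was 2.16. That fit, which is among the 16, left 1 resting array, and that array had the highest macrophage and monocyte marker sum.

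A second Tnfrsf9 probe set, 1428034_a_at, gave 122, 1027 and 718 units on resting NK arrays 1 to 3 and 6853, 4497 and 7398 units on IL-15 NK arrays 1 to 3. Resting array 1 lay below the floor. The IL-15 arrays lay above all resting arrays here too, with a geometric mean at least 11.98-fold higher, with 2 of 3 resting arrays above the floor (log2 difference at least 3.58 ± 0.53 SE, limma adjusted p = 0.0011 over all probe sets). The third, 1421481_at, ranged from 128 to 505 units over all 10 arrays, and its groups overlapped. It gave a log2 difference of -0.46 ± 0.35 (SE), which did not pass (limma adjusted p = 0.37). The probe sets thus made the same call in 2 of 3 cases, and the dim 1421481_at had the opposite sign.

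**Figure D2:**
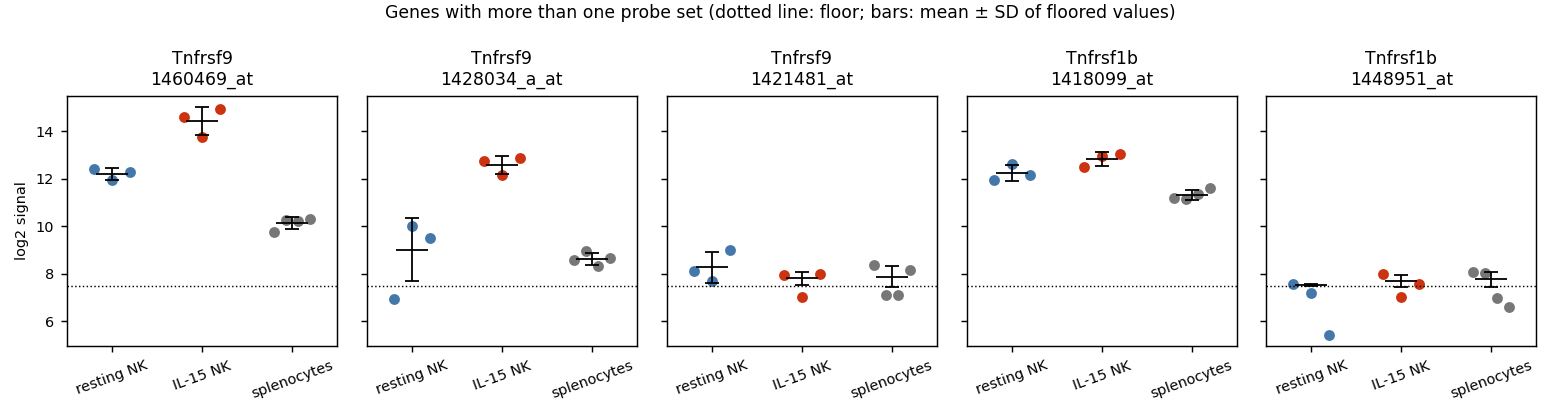
Log2 signal (y axis, shared range) of the 3 probe sets of Tnfrsf9 and the 2 of Tnfrsf1b, by group, with points, bars and dotted line as in the plot of the 8 receptors. In 1460469_at and 1428034_a_at the IL-15 NK arrays lie above all others, whereas 1421481_at and 1448951_at stay near the floor in every group.

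Tnfrsf18 encodes GITR, a receptor for GITRL that T cells raise on activation. It gave 7393, 7856 and 7668 units on resting NK arrays 1 to 3. On IL-15 NK arrays 1 to 3 it gave 9517, 11245 and 10929 units, and on splenocyte chips 4594, 4272, 3848 and 4723 units. All IL-15 arrays lay above all resting arrays, and these above all splenocyte chips. The step after IL-15 was small, 1.38-fold (log2 difference 0.46 ± 0.16 SE, 95% interval 0.10 to 0.83), and did not pass (limma adjusted p = 0.060). It passed in 2 of the 16 alternatives, with all genes tested and with the mean over probe sets (limma adjusted p = 0.033 and 0.041).

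Tnfrsf4 encodes OX40, the receptor for OX40L. It gave 880, 900 and 708 units on resting NK arrays 1 to 3, and 571, 443 and 614 units on IL-15 NK arrays 1 to 3. On splenocyte chips it gave 2624, 2352, 2581 and 2301 units. The order of the groups was the reverse of that of Tnfrsf18, its neighbour on the chromosome, and no groups overlapped. Between IL-15 and resting NK cells the log2 difference was -0.62 ± 0.28 (SE, 95% interval -1.24 to 0.0021), which did not pass (limma adjusted p = 0.13).

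Cd27, the receptor for CD70, gave 1868, 2185 and 1401 units on resting NK arrays 1 to 3 and 690, 1838 and 814 units on IL-15 NK arrays 1 to 3. IL-15 array 2 lay inside the resting range, and the other IL-15 arrays lay below it. The same array had the lowest Tnfrsf9 signal of its group. The log2 difference of -0.82 ± 0.38 (SE, 95% interval -1.66 to 0.01) did not pass (limma adjusted p = 0.14). Without IL-15 array 2 it was -1.25 and passed (limma adjusted p = 0.021), so the call depends on that array. On splenocyte chips Cd27 gave 2281, 1977, 2536 and 2106 units, a range that resting NK array 2 entered.

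The receptors for TNF itself gave no passing change between the NK groups. Tnfrsf1b, TNF receptor 2, gave 3967, 6234 and 4500.3 units on resting NK arrays 1 to 3 and 5820, 7887 and 8497 units on IL-15 NK arrays 1 to 3. Resting array 2 lay above IL-15 array 1, so the groups overlapped. The log2 difference was 0.60 ± 0.23 (SE, limma adjusted p = 0.078), and without resting array 2 it was 0.79 and passed (limma adjusted p = 0.021). Tnfrsf1a, TNF receptor 1, gave 4846, 5406 and 3962 units on resting NK arrays and 3626, 4542 and 4902 units on IL-15 NK arrays. These groups overlapped, with IL-15 array 1 lowest and resting array 2 highest of the 6, and the difference was -0.12 with a 95% interval of -0.58 to 0.34 on the log2 scale (limma adjusted p = 0.71). The second probe set of Tnfrsf1b, 1448951_at, lay between 43.0 and 266 units on all 10 arrays and passed in no comparison.

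Ltbr, which binds lymphotoxin alpha-beta and LIGHT, gave 651, 271 and 529 units on resting NK arrays 1 to 3 and 395, 169 and 114 units on IL-15 NK arrays 1 to 3. IL-15 array 1 was the 1 array of its group above the floor, and it lay above resting array 2. The difference did not pass (log2 difference -0.96 ± 0.42 SE, limma adjusted p = 0.12). Without resting array 2 it was -1.33 and passed (limma adjusted p = 0.029). Fas, the death receptor for Fas ligand, gave 183, 26.7 and 197 units on resting NK arrays 1 to 3 and 20.4, 71.0 and 30.1 units on IL-15 NK arrays 1 to 3. It was above the floor on 2 of 3 resting and 0 of 3 IL-15 arrays, so neither level was measured well enough to compare them.

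Comparing NK cells with splenocytes asks which of these transcripts were richer in NK cells than in the spleen as a whole. Resting NK cells had higher Tnfrsf9, Tnfrsf18, Tnfrsf1b and Tnfrsf1a, and lower Tnfrsf4 and Fas. Of the 8 receptors 4 passed as higher and 2 as lower, while 38.6% of 12938 genes passed in this comparison, 17.1% as higher and 21.5% as lower. IL-15 NK cells had higher Tnfrsf9, Tnfrsf18 and Tnfrsf1b and lower Tnfrsf4 and Fas, 3 and 2 of 8, while 44.3% of 12465 genes passed, 20.8% as higher and 23.5% as lower. The median log2 difference of the receptors was 0.23 in the first and -0.30 in the second comparison, against -0.06 and -0.10 over all genes. Both comparisons share the splenocyte chips.

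Tnfrsf9 in resting NK cells was 4.20-fold that in splenocytes (log2 difference 2.07 ± 0.32 SE, n = 3 arrays against 4 chips of 2 samples, limma adjusted p = 0.0014), and in IL-15 NK cells 19.7-fold (4.30 ± 0.32 SE, limma adjusted p = 3.3e-05). For resting NK cells this rested on the brightest probe set. By 1428034_a_at, which gave 379, 495, 320 and 406 units on splenocyte chips, resting array 1 lay below all chips and the difference was 0.37 ± 0.65 (SE, limma adjusted p = 0.70). With the mean over the probe sets the resting difference was 0.94 (limma adjusted p = 0.0501). For IL-15 NK cells the second probe set made the same call, 15.5-fold higher than in splenocytes (limma adjusted p = 0.0018).

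Tnfrsf18 was 1.76-fold higher in resting NK cells than in splenocytes (log2 difference 0.81 ± 0.14 SE, limma adjusted p = 0.0022) and 2.42-fold higher in IL-15 NK cells (1.28 ± 0.14 SE, limma adjusted p = 0.00018). Tnfrsf4 went the other way. It was 2.98-fold lower in resting NK cells (log2 difference -1.58 ± 0.25 SE, limma adjusted p = 0.0014) and 4.58-fold lower in IL-15 NK cells (-2.19 ± 0.24 SE, limma adjusted p = 0.00021). Regulatory T cells are known to carry both receptors. The summed signal of 4 regulatory T-cell markers was 708 to 884 units in NK cells at rest, 604 to 1553 after IL-15 and 2139 to 2740.5 in splenocytes. In splenocytes its largest part was Ctla4 (1049 to 1481 units), and Foxp3 was near the floor (212 to 320). Both lay below their splenocyte signals on every NK array. Il2ra (235 to 707 units after IL-15, 256 to 427 in splenocytes) and Ikzf4 (233 to 578 and 541 to 761.5) overlapped between these groups. The part of regulatory T cells in either difference was not tested.

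Tnfrsf1b gave 2320, 2285, 2613 and 3076 units on splenocyte chips, below every NK array. It was 1.88-fold higher in resting NK cells (log2 difference 0.91 ± 0.24 SE, limma adjusted p = 0.018) and 2.86-fold higher in IL-15 NK cells (1.52 ± 0.24 SE, limma adjusted p = 0.0013). Tnfrsf1a gave 3163, 3204, 3063 and 2638 units on splenocyte chips, again below every NK array. It was 1.56-fold higher in resting NK cells (log2 difference 0.64 ± 0.20 SE, limma adjusted p = 0.032), and in IL-15 NK cells the difference of 0.52 ± 0.20 did not pass (limma adjusted p = 0.062), but passed with quantile normalization and without IL-15 array 1 (limma adjusted p = 0.044 and 0.039). The resting calls of both were the least secure of the set. With all genes tested the adjusted p was 0.054 for Tnfrsf1b and 0.055 for Tnfrsf1a. Without resting array 1 the limma adjusted p of Tnfrsf1a was 0.075, and without resting array 2 it was 0.067. Without both, which left 1 resting array, the log2 difference was 0.40 for Tnfrsf1a and 0.82 for Tnfrsf1b. With the mean over probe sets, which takes in the dim 1448951_at, Tnfrsf1b had a log2 difference of 0.33 (limma adjusted p = 0.13).

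Fas gave 826, 1150.1, 1476 and 1160 units on splenocyte chips, all above the highest NK array. It was at least 6.06-fold lower in resting NK cells, with 2 of 3 arrays above the floor (limma adjusted p = 1.9e-05), and at least 6.28-fold lower in IL-15 NK cells, with 0 of 3 above it (limma adjusted p = 1.5e-05). Both calls held in every alternative run, 20 and 19 of them. B-cell and macrophage marker sums, given above, moved in the same direction, and their part in this difference was not tested. Cd27 and Ltbr did not pass in either comparison as fitted. For resting NK cells the 95% intervals were -1.26 to 0.64 for Cd27 and -1.23 to 0.87 for Ltbr on the log2 scale. For IL-15 NK cells, whose arrays lay below all splenocyte chips for both genes, the log2 differences were -1.13 ± 0.41 (limma adjusted p = 0.056) and -1.14 ± 0.45 (limma adjusted p = 0.076, 1 of 3 arrays above the floor). Cd27 passed there with the floor at the 20th percentile, with an offset of 100 in place of the floor, without IL-15 array 2 and without splenocyte chip 2 (limma adjusted p = 0.049, 0.030, 0.0039 and 0.047), and Ltbr passed without IL-15 array 1 (limma adjusted p = 0.024). Ltbr gave 417, 571, 547 and 536 units on splenocyte chips.

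**Figure D3:**
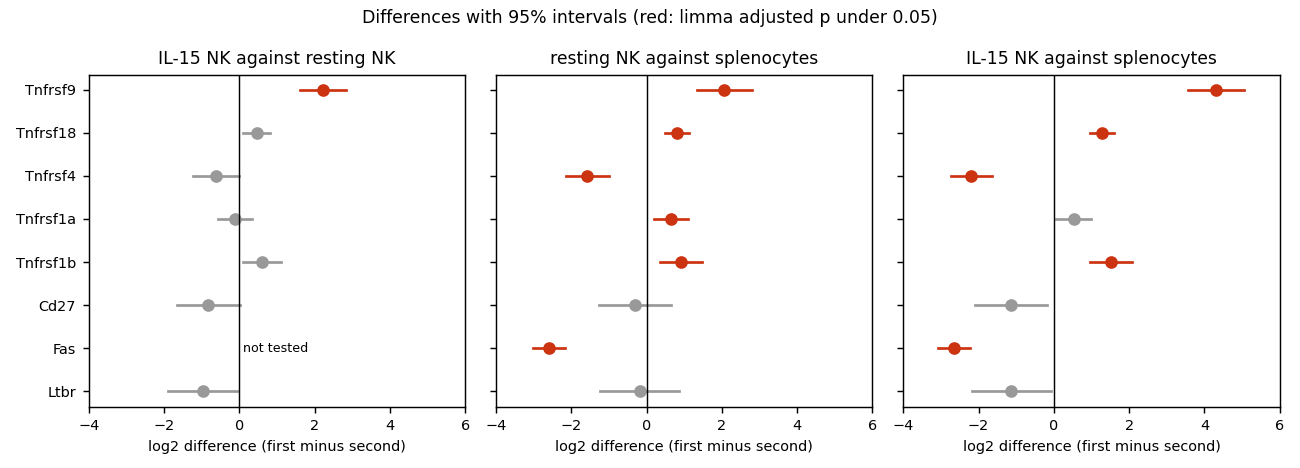
Log2 differences of the 8 receptors (x axis, first group minus second) with 95% intervals from limma, for the 3 comparisons. Red marks an adjusted p under 0.05 over all genes, grey a difference that did not pass. Tnfrsf9 is red and right of 0 in all 3 panels, whereas Tnfrsf4 and Fas are red and left of 0 only against splenocytes, and Fas was not tested between the NK groups.

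The order of the 3 groups differed between the receptors. Tnfrsf9, Tnfrsf18 and Tnfrsf1b had their highest mean in IL-15 NK cells and their lowest in splenocytes, and the step between the NK groups passed for Tnfrsf9 and not for the other two. Tnfrsf4, Cd27, Fas and Ltbr had their highest mean in splenocytes and their lowest in IL-15 NK cells, and for these 4 the step between the NK groups did not pass or, for Fas, was not measured. Tnfrsf1a had its highest mean in resting NK cells, with no passing step to IL-15 NK cells. Among 12568 genes, the one whose log2 signal was most like that of Tnfrsf9 over the 10 arrays was Metrnl (Pearson r = 0.99), and for Tnfrsf1b it was Traf2 (r = 0.98), whose protein is a TRAF adaptor. For Tnfrsf4 it was Mast4 (r = 0.99), for Tnfrsf18 Septin11 (r = 0.99) and for Fas Id1 (r = 0.997). The arrays fall into 3 groups and share their scaling, so these values mainly describe group means.

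Genes around the receptors were taken from lists by role. Among ligands, Tnfsf9, which encodes 4-1BBL, the ligand of 4-1BB, rose. It gave 196.5, 532 and 250.2 units on resting NK arrays 1 to 3 and 1015, 791 and 869 units on IL-15 NK arrays 1 to 3, without overlap (log2 difference 1.58 ± 0.38 SE, limma adjusted p = 0.012). Tnf, at 661, 67.5 and 286.5 units in resting and 1214, 706 and 1041 units in IL-15 NK cells, had a geometric mean at least 2.97-fold higher with 2 of 3 resting arrays above the floor (limma adjusted p = 0.027). Lta, lymphotoxin alpha, was below the floor on all resting NK arrays and at 690.5, 318 and 284.5 units on IL-15 NK arrays, at least 2.21-fold higher (limma adjusted p = 0.034). Ltb, lymphotoxin beta, fell from 10129, 14312 and 6538 units to 2654.5, 5332 and 2121 units (log2 difference -1.66 ± 0.36 SE, limma adjusted p = 0.0078). Ligands that passed were thus 3 higher and 1 lower of 7 tested, with a median log2 difference of 0.30, while 14.2% of all genes passed as higher and 12.1% as lower. With all genes tested none of the 4 passed (limma adjusted p from 0.11 to 0.21). Tnf lost its call when resting array 2 or 3 or IL-15 array 1 or 3 was left out (limma adjusted p from 0.057 to 0.095), and Lta when any resting array was left out (0.056 to 0.077). Without resting arrays 1 and 2 together, which left 1 resting array, the log2 difference of Ltb was -1.07. Fasl, the ligand of Fas, gave 19871 to 22898 units in resting and 24802 to 25645 units in IL-15 NK cells and did not pass between them, and it was 16.1-fold higher in resting NK cells than in splenocytes (limma adjusted p = 2.3e-06).

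Of 19 other TNF receptors on the array 9 were tested between the NK groups, and 1 rose and 2 fell, against 26.3% of all genes that passed in either direction. Tnfrsf21, death receptor 6, gave 297, 216.5 and 235 units on resting NK arrays and 1210, 959 and 997 units on IL-15 NK arrays, with no overlap (log2 difference 2.09 ± 0.28 SE, limma adjusted p = 0.00052). Tnfrsf13c, the BAFF receptor of B cells, fell (log2 difference -1.57, limma adjusted p = 0.021). It gave 1583, 2141 and 640 units on resting NK arrays 1 to 3, where the B-cell marker sums were 33200, 30256 and 3516 units. Without resting arrays 1 and 2, which left 1 resting array, the difference was -0.55. The part of B cells in this fall was not tested. Tnfrsf13c missed the threshold without resting array 1, IL-15 array 1 or IL-15 array 3 (limma adjusted p from 0.058 to 0.074). Tnfrsf25, death receptor 3, was at least 2.47-fold lower, with 2 of 3 IL-15 arrays above the floor (limma adjusted p = 0.011). It did not pass with quantile normalization, with the floor at the 20th percentile or without IL-15 array 3 (limma adjusted p from 0.052 to 0.059). With resting arrays 1 and 2 both left out, and so 1 resting array, its log2 difference was -1.18. Against splenocytes 0 of these receptors passed as higher in either NK group by limma, and 6 of 13 tested were lower in resting and 6 of 12 in IL-15 NK cells. Of all genes, 17.1% passed as higher and 21.5% as lower in resting NK cells, and 20.8% and 23.5% in IL-15 NK cells. At an unadjusted p under 0.05 also 0 were higher, and the share of all genes at that threshold is not given here. The lower ones included the B-cell receptors Tnfrsf13b and Tnfrsf13c and the antigen-presenting cell receptor Cd40.

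Adaptors that couple the receptors to signalling gave 1 higher and 4 lower of 16 tested between the NK groups, where 14.2% of all genes passed as higher and 12.1% as lower. Siva1, whose protein binds the tail of CD27, rose from 1642, 2313 and 1620.4 units to 6532, 10644 and 6192 units (log2 difference 2.04 ± 0.26 SE, limma adjusted p = 0.00040). Birc3, a TRAF-bound ubiquitin ligase, fell (log2 difference -0.88, limma adjusted p = 0.0059). Traf1 and Sharpin fell, with log2 differences of -0.91 and -0.87 (limma adjusted p = 0.022 and 0.0068), and neither passed with the mean over probe sets (limma adjusted p = 0.051 and 0.098). Traf1 also failed to pass without IL-15 array 1 or 3 (limma adjusted p = 0.068 and 0.073). The fourth lower gene was Birc2, a close relative of Birc3. Traf2 gave 2585, 3612 and 3121 units in resting and 3936, 4032 and 5064 units in IL-15 NK cells, and did not pass.

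Genes of the NF-kappaB relay downstream of the receptors gave 0 higher and 4 lower of 16 tested by limma, and 0 and 5 at an unadjusted p under 0.05. Counted in either direction, the share by limma lay near the 26.3% of all genes. Of these genes 14.2% passed as higher and 12.1% as lower. Their share at the unadjusted threshold is not given here. The 4 that fell were Tnfaip3, Nfkbie, Nfkbia and Tnip1. Nfkbib and Cyld, which encode other inhibitors of the pathway, had log2 differences of 0.59 and -0.34 and did not pass (limma adjusted p = 0.25 and 0.15). Tnfaip3, which encodes A20, gave 36126, 35335 and 9862 units on resting NK arrays 1 to 3 and 3934, 3062 and 3955 units on IL-15 NK arrays 1 to 3. The groups did not overlap, and the resting arrays differed widely among themselves. Its log2 difference was -2.68 ± 0.42 (SE, limma adjusted p = 0.0014), and -1.44 without resting arrays 1 and 2, which left 1 resting array. Nfkbia and Nfkbie, which encode inhibitors that hold NF-kappaB in the cytoplasm, fell too, with log2 differences of -1.34 and -1.86 (limma adjusted p = 0.00042 and 0.00030) and passed in all 16 alternatives. Tnip1, a partner of A20, fell (log2 difference -1.16, limma adjusted p = 0.025), and did not pass without resting array 2 (limma adjusted p = 0.051) or without IL-15 array 1 or 3 (limma adjusted p = 0.089 and 0.091). With all genes tested, Tnfaip3, Tnip1, Traf1, Tnfrsf13c and Tnfrsf25 did not pass (limma adjusted p from 0.064 to 0.20). The median log2 difference was -0.33 over the adaptors and -0.46 over the relay genes, against -0.09 over all genes.

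**Figure D4:**
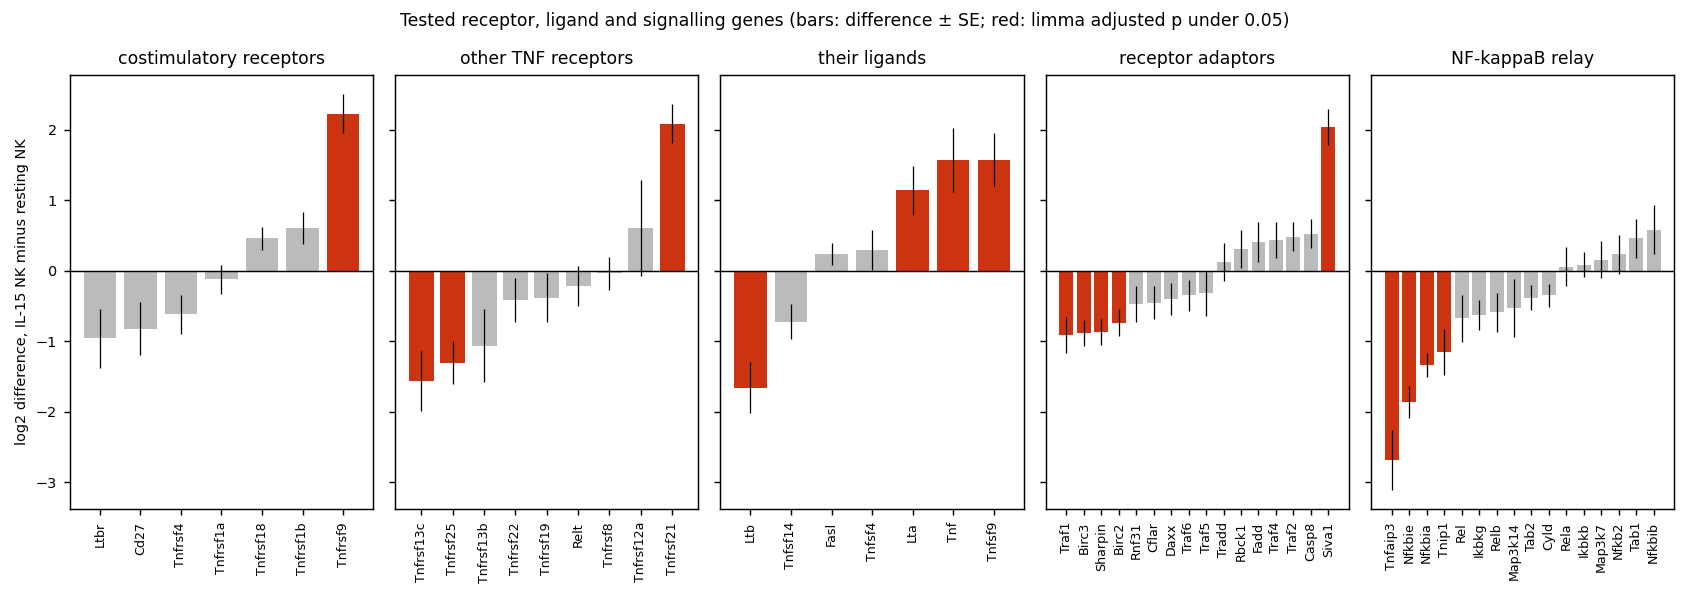
Log2 difference of NK cells after IL-15 from NK cells at rest (y axis) of each tested gene of 5 lists (x axis, ordered by value within a list). Bars are the difference with its SE, red where the limma adjusted p was under 0.05. Among the costimulatory receptors the one red bar is Tnfrsf9, 3 of the ligands are red above 0, and the 4 red relay genes all lie below 0.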

How the data were processed

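The authors deposited linear intensities, 1 for each probe set on each array, from GCOS 1.4 per the submitters' processing notes. How probes were summarised and to which target arrays were scaled is not given in the sources used here. The trimmed mean was 1500.01 on every array, so levels are relative within an array and a change in total RNA per cell is not seen.

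Signals under the floor (median of the arrays' 40th percentiles) were raised to it before log2 was taken. A gene was its probe set with the highest mean, tested where at least 3 arrays of a comparison exceeded the floor. Folds are ratios of geometric means. Raising a dim signal to the floor can only lower such a ratio, so folds with floored arrays in the dimmer group alone are lower bounds. Tests used limma 3.58.1 under R 4.3.3 (eBayes with intensity trend, 2-sided, Benjamini-Hochberg over all genes, threshold 0.05). The fits were first run on simulated data with independent arrays and no floor. Those runs therefore do not check the floor or the shared splenocyte samples. IL-15 and resting NK cells were fitted alone, and splenocyte comparisons with all groups, chips averaged under each of 3 pairings and the largest p kept. Probe sets were named from GEO's platform annotation, and 64 control probe sets were left out. The number of arrays limits the precision.

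The receptors and gene lists were chosen with earlier results of these data known. Named from each list were up to 4 passing genes with the largest differences, and the text gives part of the 2 most alike genes taken for each receptor. Birc2, Cyld, Fasl, Nfkbib and Traf2 were named after their values were seen. Alternatives changed the floor, offset, scaling, filter, probe set rule, trend, block and arrays.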

Additional observations from a re-analysis of the deposited data

How the results depend on the processing

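Over the 3 comparisons, 392 of 423 differences of the 8 receptors kept their direction and their side of the threshold under the alternatives. The sign turned in 5, none of which passed: Tnfrsf1a between the NK groups (log2 difference 0.0059 without IL-15 NK replicate 1, with a range from -0.24 to 0.0059 when each array was left out in turn, and 0.13 without resting NK replicates 1 and 2) and Ltbr in resting NK cells against splenocytes (0.11 with quantile normalization, 0.19 without resting NK replicate 2, with a range from -0.44 to 0.19, and 0.043 without resting NK replicates 1 and 2). Between IL-15 and resting NK cells, 1 receptor passed as reported, 2 with all genes tested and 2 with the mean over probe sets. With all genes tested 1646 genes passed, 969 higher and 677 lower. Leaving out each array in turn gave 1963 to 3241 genes, 841 to 1537 of them lower, and 1 to 3 receptors. With the replicate number as a block 4 receptors passed with all arrays kept, Tnfrsf9, Tnfrsf1b, Cd27 and Ltbr (limma adjusted p = 0.033, 0.0498 and 0.037 for the last 3). The design text speaks of pairs of NK samples, but does not tie them to the numbers. Deviations of same-numbered arrays correlated at 0.103, 0.281 and 0.066, and not every array correlated best with its own number, so the numbers were not taken as pairs. The block changed no other call of the receptors. In IL-15 NK cells against splenocytes, all 8 receptors passed with each chip taken as a sample, which counts 2 samples as 4. Quantile normalization moved the median log2 difference of all genes from -0.10 to 0.11 there, and from -0.06 to 0.05 in resting NK cells against splenocytes. Each shift is smaller than every receptor difference from splenocytes that passed. Low signals limit Fas and Ltbr in NK cells, and the dimmer probe sets of Tnfrsf9 and Tnfrsf1b.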
